A study of Mus musculus with 9 samples.

Results

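Oscar, Trem2, Siglec15, Tyrobp, Fcer1g, Syk, Plcg2, Btk, Tec and Lyn encode receptors, adaptors, kinases and a phospholipase of the ITAM (immunoreceptor tyrosine-based activation motif) pathway. These 10 genes were taken by symbol from the 56691 genes of the deposited table, and each symbol matched 1 gene. The table's KEGG annotation puts 7 of them among the 165 genes of osteoclast differentiation, all but Siglec15, Fcer1g and Lyn. RNA was sequenced from RAW264.7, a mouse macrophage-like line that forms osteoclast-like cells when given RANKL, the cytokine that drives osteoclast differentiation. The 9 libraries fell into 3 groups of 3: untreated cells (control), cells given RANKL at 50 ng/mL, and cells given the same RANKL with UD (uridine, a pyrimidine nucleoside), all collected after 3 days. The dose of UD in these libraries is not given in the sources used here. All groups came from a single immortalised line, so none of them is a primary osteoclast precursor. The labels call the 3 libraries of a group biological replicates without saying what separated the cultures, and p-values measure the spread between these libraries.

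ITAM signalling is the costimulatory arm of osteoclast differentiation, beside the signal from RANK itself. Receptors such as OSCAR, TREM2 and SIGLEC15 have short tails and pair with an adaptor, DAP12 (gene Tyrobp) or FcRγ (gene Fcer1g), that carries the motif. A Src family kinase phosphorylates the motif, SYK docks on it, and BTK and TEC help to activate PLCγ2, which releases calcium and so brings the transcription factor NFATc1 into play.

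Library totals ranged from 15951800 to 19746862 counts, and 11995 genes passed a filter of at least 1 FPKM (fragments per kilobase of exon, scaled to the library total) in at least 3 libraries. All 10 genes passed, Oscar and Siglec15 only through the libraries that had RANKL. Macrophage markers summed to between 9474 and 10075 FPKM in control, 2649 and 2898 in RANKL, and 2298 and 2436 in RANKL + UD. Of these markers, 8 of 8 were expressed. Lyz2 was the largest part of the sum, at a mean of 8000, 1431 and 1285 FPKM in control, RANKL and RANKL + UD. Single markers could go the other way. Cd68 rose from 549 to 782 FPKM with RANKL and Spi1 from 82.6 to 121. Adgre1 averaged 10.1 FPKM in RANKL and 12.6 in RANKL + UD. Osteoclast markers, of which 6 of 8 reached a mean of 1 FPKM, summed to between 46.9 and 49.9 FPKM in control, 2619 and 2822 in RANKL, and 1657 and 1694 in RANKL + UD. These sums moved with the groups, and their part in the results on the 10 genes was not tested. Of the 5 B cell, 5 T and NK cell, 4 mast cell and basophil, 4 neutrophil, and 5 fibroblast and osteoblast markers, 0 reached a mean of 1 FPKM. Ms4a1 of the B cell list and Cd3e of the T cell list were at 0 counts in every library. In these bulk libraries, fewer cells of a type and less RNA per cell cannot be told apart.

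The stretches just before the start sites of Oscar, Trem2 and Tec are shown because these were the genes that fell most with UD among those that have a RefSeq promoter entry (7 of the 10 genes, in 8 windows). Each holds the 250 bases before the start, 5′ to 3′ on the strand of the gene, from RefSeq on GRCm38.p6. Capitals mark matches to letters used by 4 factors of the osteoclast lineage: GAGGAA for PU.1, GGAAA for NFAT, TGANTCA for AP-1 and TCATGTG for MITF, searched on both strands. A GAGGAA that is followed by A also holds GGAAA, so these can overlap.
Oscar, chr7:3616158-3616407, minus strand: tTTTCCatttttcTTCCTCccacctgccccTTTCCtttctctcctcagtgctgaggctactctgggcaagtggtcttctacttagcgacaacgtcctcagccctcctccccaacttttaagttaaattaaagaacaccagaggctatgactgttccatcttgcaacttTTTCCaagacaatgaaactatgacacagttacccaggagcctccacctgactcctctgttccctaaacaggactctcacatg
Trem2, chr17:48346151-48346400, plus strand: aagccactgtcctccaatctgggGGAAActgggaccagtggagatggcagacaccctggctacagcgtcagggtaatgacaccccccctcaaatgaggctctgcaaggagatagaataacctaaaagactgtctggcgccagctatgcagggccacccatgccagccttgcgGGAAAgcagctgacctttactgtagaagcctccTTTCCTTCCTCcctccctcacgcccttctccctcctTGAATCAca
Tec, chr5:72868449-72868698, minus strand: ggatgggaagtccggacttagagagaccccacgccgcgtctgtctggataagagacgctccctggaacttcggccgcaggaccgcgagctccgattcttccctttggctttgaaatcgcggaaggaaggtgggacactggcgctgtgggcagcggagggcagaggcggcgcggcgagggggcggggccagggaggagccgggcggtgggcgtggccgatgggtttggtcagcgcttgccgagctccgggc
The Oscar window held 1 PU.1 match and 3 NFAT matches. The Trem2 window held 1 PU.1, 3 NFAT and 1 AP-1 match, the last between 9 and 3 bases before the start. None of the letters searched was in the Tec window. Among 32851 promoter windows of the same length, 23.3% held the PU.1 letters, 55.6% the NFAT letters, 6.75% the AP-1 letters and 3.25% the MITF letters. A match is a description of the letters and not a bound site. Of the other windows, Fcer1g and Btk had 1 NFAT match each, Plcg2 had 2, and the second start of Syk had an NFAT match that overlaps a PU.1 match. Siglec15, Tyrobp and Lyn have no entry.

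The first comparison, RANKL against control, addressed how the pathway's transcripts differed once the line had been driven toward osteoclasts. Under RANKL, 2 of the 3 receptors rose from near absence (Oscar and Siglec15), the third receptor and both adaptors fell, and among the kinases Syk and Btk rose while Lyn and Tec fell. In all, 4 of the 10 genes were higher and 6 were lower at an adjusted p under 0.05 (edgeR's quasi-likelihood test, Benjamini-Hochberg adjustment over all tested genes). Among the 4, Oscar and Siglec15 entered the test only through libraries with RANKL, where they were high. The filter thus favoured their calls against control, which add no independent support. Of all tested genes, 27.3% were called higher and 30.2% lower. The median log2 fold change was -0.38 over the 10 genes and -0.027 over all tested genes. With library totals as the only scaling, 36.8% of the calls over all genes were higher, against 47.5% with TMM scaling, and the median over all genes was -0.12.

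The second comparison, RANKL + UD against RANKL, addressed the effect of UD in cells that received RANKL. Here 8 of the 10 genes were lower, 0 were higher and 2 (Fcer1g and Btk) did not pass, where 20.2% of all tested genes were called lower and 18.6% higher. That background includes genes of lower level, and all 10 genes lay above 5 FPKM in these groups. With a filter of at least 5 FPKM in at least 3 libraries, 2052 of 7757 tested genes were called lower and 1623 higher. The median log2 fold change was -0.30 over the 10 genes and 0.0050 over all tested genes. With library totals as the only scaling, 66.2% of the calls over all genes were higher, against 48.0% with TMM, and 6 of the 10 genes were lower and 1 higher (Btk). The largest falls were those of Oscar, Siglec15 and Tec. Both comparisons use the RANKL libraries.

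**Figure D1:**
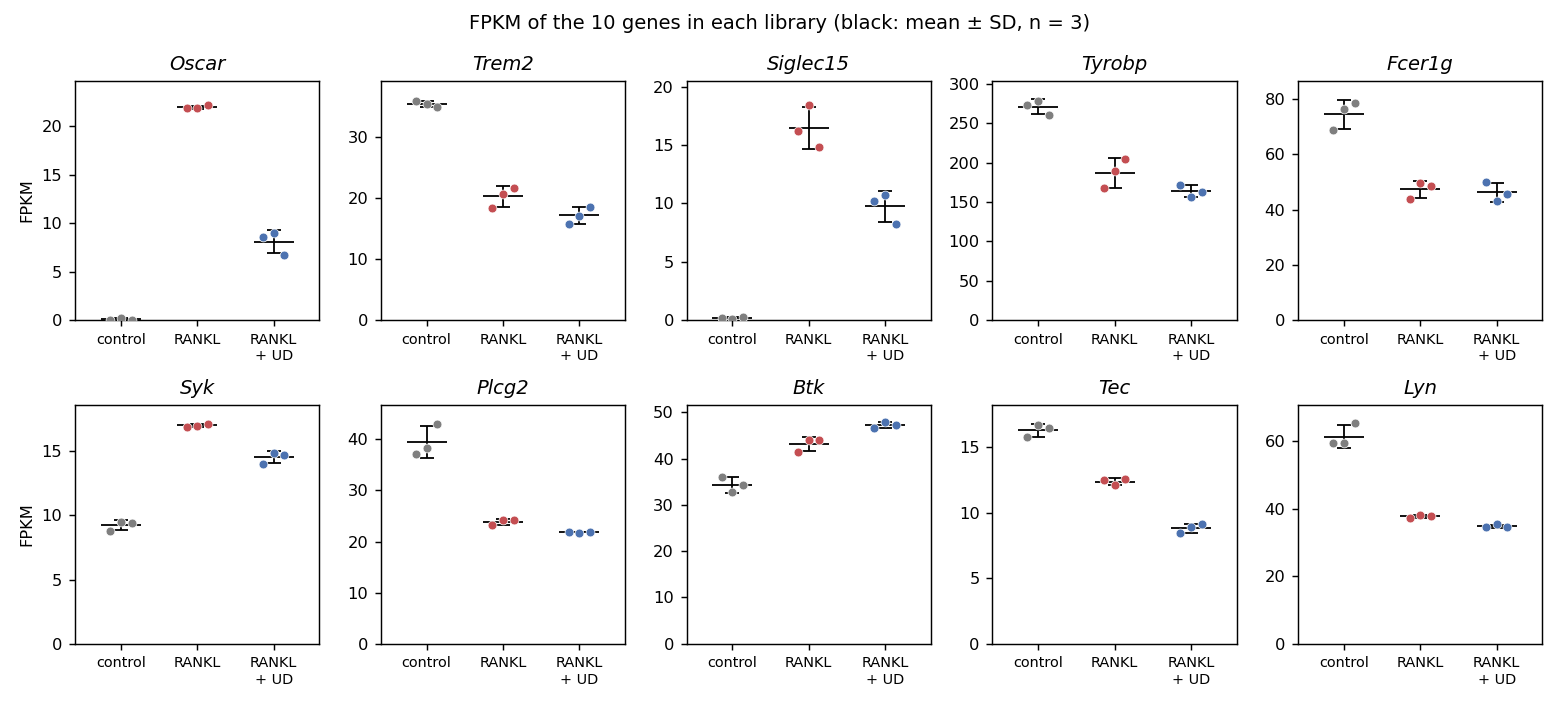
FPKM of the 10 genes (vertical axis, from 0, a scale for each gene) in the 3 libraries of each group, with black bars for the mean and SD. Oscar and Siglec15 lie at or near 0 in control and lower in RANKL + UD than in RANKL, whereas the libraries of Trem2, Tyrobp and Fcer1g overlap between RANKL and RANKL + UD.

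OSCAR is the osteoclast-associated receptor, which binds collagen and signals through FcRγ. Oscar (ENSMUSG00000054594, chr7:3612812-3619156 in the deposited table) had 0, 0.19 and 0 FPKM in the control libraries. It had 21.93, 21.85 and 22.16 FPKM in RANKL and 8.54, 9 and 6.74 FPKM in RANKL + UD. The 3 groups did not overlap, and the CV (SD over mean) was 0.732% among the RANKL libraries and 14.8% among the RANKL + UD libraries. All 7 control counts came from replicate 2. RANKL had 305 times the control level, as summed counts over summed library totals (exact 95% interval 148 to 759, counting error only). The edgeR adjusted p was 3.83e-16, for a gene that passed the filter only through libraries with RANKL. Without control replicate 2 the other control libraries had 0 counts. Against a floor of 3 counts per library, Oscar was then at least 222-fold higher in RANKL and 81.6-fold higher in RANKL + UD. These values leave out the only control library with Oscar counts and are not lower bounds against all control libraries. In RANKL + UD it fell by 1.53 (SE 0.136) on the log2 scale relative to RANKL, with an edgeR adjusted p of 2.04e-08. It stayed 112 times above control there (54.2 to 280).

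SIGLEC15 binds sialylated glycans and couples to DAP12 in osteoclasts. Siglec15 (ENSMUSG00000091055, chr18:78086829-78100610) had 0.21, 0.13 and 0.22 FPKM in control. It had 16.20, 18.40 and 14.84 FPKM in RANKL and 10.21, 10.71 and 8.26 FPKM in RANKL + UD. Every RANKL library lay above every RANKL + UD library, and all of these lay above control. Control held 11 counts in all, so the ratio of RANKL to control, 91.0, had an exact 95% interval of 50.7 to 183. In RANKL + UD it fell by 0.85 (SE 0.130) on the log2 scale relative to RANKL, with an edgeR adjusted p of 2.64e-05. The ratio to control in RANKL + UD was 53.7 (29.8 to 108).

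TREM2 is a lipid-sensing receptor of macrophages and microglia that also couples to DAP12. Trem2 (ENSMUSG00000023992, chr17:48653429-48661175) had 35.97, 35.50 and 34.96 FPKM in control. It had 18.42, 20.67 and 21.72 FPKM in RANKL and 15.75, 17.14 and 18.62 FPKM in RANKL + UD. Control was apart from both RANKL groups, and these overlapped each other by the highest library of RANKL + UD and the lowest of RANKL. RANKL against control gave a log2 fold change of -0.72 (SE 0.0630), with an edgeR adjusted p of 2.87e-09. It was -0.33 (SE 0.0647) in RANKL + UD against RANKL, with an edgeR adjusted p of 0.000400. Thus the 3 receptors shared the fall with UD, while RANKL raised 2 of them and lowered Trem2.

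DAP12, a disulfide-linked dimer, supplies the ITAM for TREM2 and SIGLEC15. Its gene Tyrobp (ENSMUSG00000030579, chr7:30113185-30117010) had 273.43, 279.02 and 260.81 FPKM in control. It had 167.30, 189.28 and 204.30 FPKM in RANKL and 171.75, 156.71 and 162.58 FPKM in RANKL + UD. It was the most abundant of the 10 transcripts in every group, at percentile 99.0 of the tested genes in control and 98.2 in RANKL. The log2 fold change was -0.45 (SE 0.0625) in RANKL against control, with an edgeR adjusted p of 2.82e-06. It was -0.28 (SE 0.0636) in RANKL + UD against RANKL, with an edgeR adjusted p of 0.00161, and the libraries of these groups overlapped in FPKM. With limma on log2(FPKM + 1), this second difference did not pass (adjusted p 0.0609).

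FcRγ is the ITAM adaptor that OSCAR and the activating Fc receptors share. Its gene Fcer1g (ENSMUSG00000058715, chr1:171057141-171061934) had 68.67, 76.48 and 78.61 FPKM in control. It had 43.90, 49.49 and 48.67 FPKM in RANKL and 50, 43.14 and 45.64 FPKM in RANKL + UD. The groups with RANKL lay below control and overlapped each other. In RANKL it fell by 0.57 (SE 0.0760) on the log2 scale relative to control, with an edgeR adjusted p of 1.65e-06. The difference between RANKL + UD and RANKL did not pass (-0.12, 95% interval -0.28 to 0.045, edgeR adjusted p 0.255). That interval still holds a fall of 0.28 on the log2 scale.

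LYN is a Src family kinase of myeloid and B cells that phosphorylates both ITAMs and inhibitory motifs. Lyn (ENSMUSG00000042228, chr4:3678115-3813122) had 59.41, 59.37 and 65.20 FPKM in control. It had 37.10, 38.24 and 37.68 FPKM in RANKL and 34.41, 35.33 and 34.63 FPKM in RANKL + UD. The 3 groups did not overlap, and the step from control to RANKL was much the larger. The log2 fold change was -0.62 (SE 0.0488) in RANKL against control, with an edgeR adjusted p of 6.00e-10. It was -0.20 (SE 0.0494) in RANKL + UD against RANKL, with an edgeR adjusted p of 0.00272. With library totals as the only scaling, the second difference was -0.11 and did not pass (edgeR adjusted p 0.0702).

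SYK is the kinase that binds the phosphorylated ITAM through its tandem SH2 domains. Syk (ENSMUSG00000021457, chr13:52737209-52802828) had 8.81, 9.51 and 9.43 FPKM in control. It had 16.93, 17.01 and 17.16 FPKM in RANKL and 14, 14.84 and 14.75 FPKM in RANKL + UD. Each RANKL + UD library lay between the other groups. In RANKL it rose by 0.97 (SE 0.0498) on the log2 scale relative to control, with an edgeR adjusted p of 4.45e-13. It was -0.32 (SE 0.0486) in RANKL + UD against RANKL, with an edgeR adjusted p of 2.63e-05. Oscar, Siglec15 and Syk were the members that rose with RANKL and fell with UD, and Syk remained 0.65 above control on the log2 scale.

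BTK and TEC are related kinases that are recruited to the membrane and phosphorylate PLCγ2. Btk (ENSMUSG00000031264, chrX:133443085-133484319) had 36.14, 32.71 and 34.34 FPKM in control. It had 41.50, 44.00 and 43.97 FPKM in RANKL and 46.67, 47.97 and 47.31 FPKM in RANKL + UD. Every RANKL + UD library was the highest in FPKM, whereas the TMM-scaled difference from RANKL did not pass (log2 fold change 0.05, 95% interval -0.060 to 0.15, edgeR adjusted p 0.513). With library totals as the only scaling it was 0.13 and passed (edgeR adjusted p 0.0418). Against control, Btk was higher in RANKL by 0.41 (SE 0.0520) on the log2 scale, with an edgeR adjusted p of 6.68e-07.

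Tec (ENSMUSG00000029217, chr5:72913059-73025826) had 15.76, 16.70 and 16.46 FPKM in control. It had 12.50, 12.09 and 12.55 FPKM in RANKL and 8.46, 8.88 and 9.12 FPKM in RANKL + UD. The 3 groups did not overlap. Relative to control, it fell by 0.31 (SE 0.0642) on the log2 scale in RANKL, with an edgeR adjusted p of 0.000301. It was -0.58 (SE 0.0668) in RANKL + UD against RANKL, with an edgeR adjusted p of 7.40e-07. Tec was thus lower in both steps, and the fall in RANKL + UD against control was 0.89 on the log2 scale. The Tec promoter window printed above holds none of the letters searched.

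PLCγ2 is the phospholipase that produces the second messengers for calcium release and protein kinase C. Plcg2 (ENSMUSG00000034330, chr8:118225030-118361881) had 37.05, 38.41 and 43.07 FPKM in control. It had 23.17, 24.17 and 24.14 FPKM in RANKL and 21.90, 21.77 and 21.89 FPKM in RANKL + UD. The 3 groups did not overlap. The log2 fold change was -0.64 (SE 0.0556) in RANKL against control, with an edgeR adjusted p of 2.50e-09. It was -0.21 (SE 0.0568) in RANKL + UD against RANKL, with an edgeR adjusted p of 0.00552, and -0.12 with library totals as the only scaling, which did not pass (edgeR adjusted p 0.0869).

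**Figure D2:**
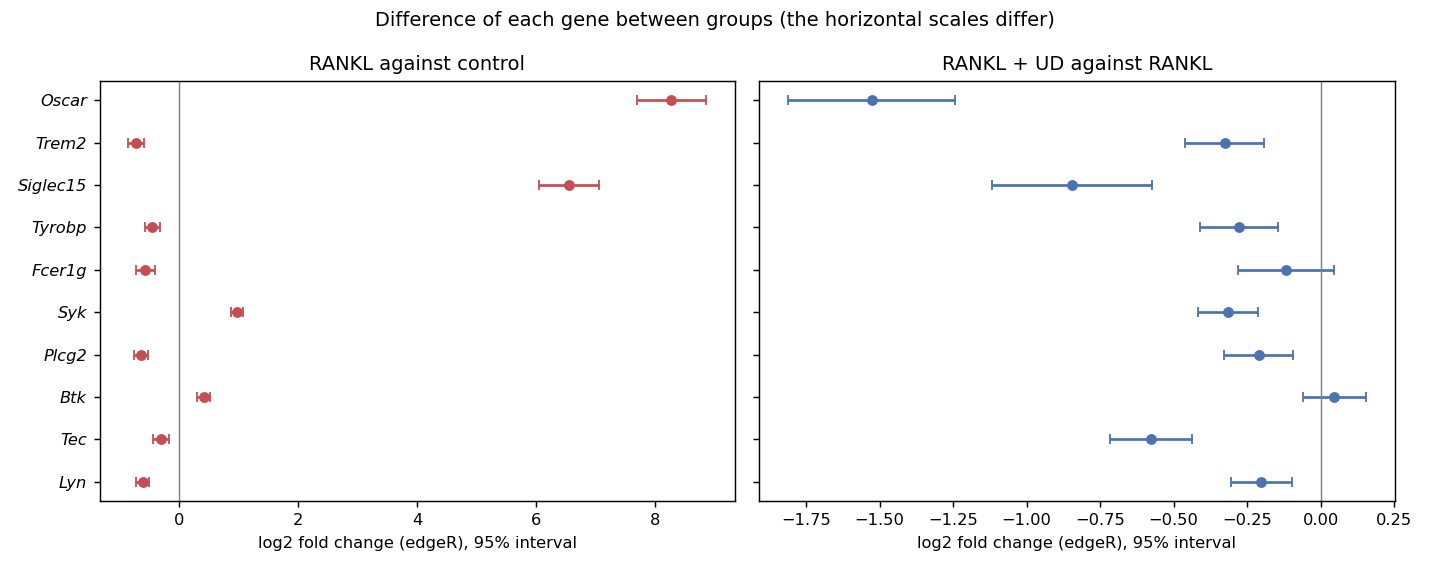
Fitted log2 fold change of each gene (horizontal axis, points with 95% intervals) in RANKL against control and in RANKL + UD against RANKL, whose scales differ. In the second comparison the intervals of 8 genes lie below 0 and those of Fcer1g and Btk cross it.

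In RANKL + UD against control, the same 4 genes as in the first comparison were higher and the same 6 lower, where 26.7% of all tested genes were called higher and 27.3% lower. The median log2 fold change was -0.71 over the 10 genes and -0.0021 over all tested genes. Trem2 had the largest fall, of 1.05 on the log2 scale. In this comparison 4 genes had all libraries above control and 6 all below, where 29.5% of all tested genes lay above and 30.4% below. The same held for these genes in RANKL against control, where 22.9% lay above and 38.8% below. Oscar and Siglec15 are among the genes above control in both comparisons, and they entered only through libraries with RANKL. In RANKL + UD against RANKL, 6 genes had all UD libraries below all RANKL libraries, 1 had them above (Btk) and 3 overlapped, where 17.6% of all tested genes lay below and 34.1% above. Overlap was judged in FPKM, which is scaled to the library total only. The tests used TMM factors, which were lower in RANKL than in the other groups. Overlap between RANKL and RANKL + UD can therefore differ after TMM scaling, which was not examined.

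The order of the 10 transcripts, compared in FPKM, differed between the groups. In control the order of mean levels was Tyrobp, Fcer1g, Lyn, Plcg2, Trem2, Btk, Tec, Syk, Siglec15 and Oscar, and only the neighbours Trem2 and Btk, and Siglec15 and Oscar, overlapped. In RANKL it was Tyrobp, Fcer1g, Btk, Lyn, Plcg2, Oscar, Trem2, Syk, Siglec15 and Tec, with overlap between Fcer1g and Btk and between Syk and Siglec15. In RANKL + UD it was Tyrobp, Btk, Fcer1g, Lyn, Plcg2, Trem2, Syk, Siglec15, Tec and Oscar, with overlap between Btk and Fcer1g, Siglec15 and Tec, and Tec and Oscar. Oscar moved from the last place in control to the sixth in RANKL and back to the last in RANKL + UD. Lyn was the most abundant kinase of the 4 in control, and Btk was in both groups with RANKL.

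Ratios within a library do not depend on the scaling between libraries, and 6 pairs of partners were set side by side. A receptor was divided by its adaptor, 1 adaptor by the other, and 1 kinase by another. The 16 comparisons of these ratios used the two-sided exact permutation test of 3 against 3 libraries, which cannot go below 0.1, so none could pass. The lowest value after Benjamini-Hochberg adjustment over the 16 was 0.123.

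The ratio of Oscar to Fcer1g was 0.465 ± 0.0303 (SD, n = 3) in RANKL and 0.176 ± 0.0308 in RANKL + UD, with no overlap. The ratio of Siglec15 to Tyrobp was 0.000692 ± 0.000200 in control, 0.0889 ± 0.0141 in RANKL and 0.0595 ± 0.00877 in RANKL + UD. Trem2 to Tyrobp was 0.131 ± 0.00345 in control, 0.109 ± 0.00198 in RANKL and 0.105 ± 0.0120 in RANKL + UD. So the receptors fell relative to their adaptors in every RANKL + UD library for Oscar and Siglec15, whereas for Trem2 the libraries of RANKL and RANKL + UD overlapped (exact permutation p 0.9).

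Tyrobp to Fcer1g was 3.65 ± 0.332 in control, 3.94 ± 0.219 in RANKL and 3.54 ± 0.10 in RANKL + UD. The control libraries overlapped both other groups, and the RANKL + UD libraries lay below the RANKL libraries. Among the kinases, Tec to Btk was 0.475 ± 0.0374, 0.287 ± 0.0133 and 0.186 ± 0.00585 in control, RANKL and RANKL + UD, with no overlap. Lyn to Syk was 6.63 ± 0.349 in control, 2.21 ± 0.0315 in RANKL and 2.40 ± 0.0565 in RANKL + UD. The transcripts of the ITAM-binding kinase and of the Src family kinase thus stood closer in level in both groups with RANKL.

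**Figure D3:**
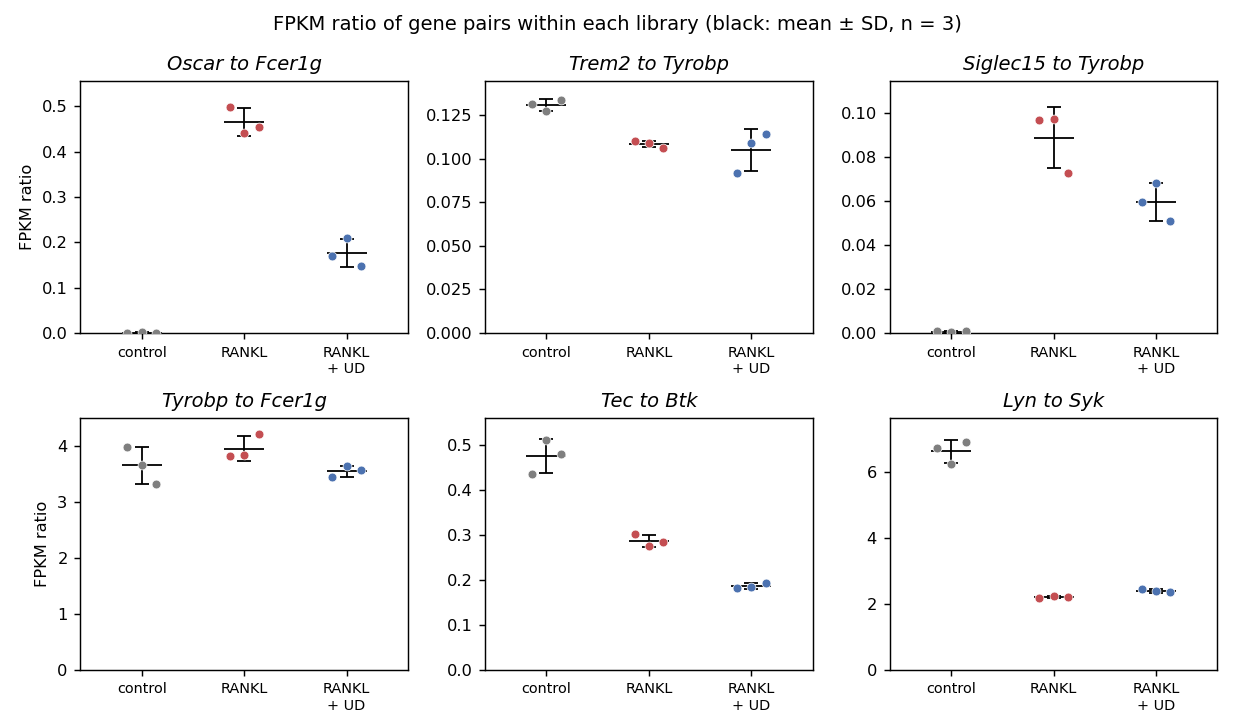
FPKM ratio of each pair (vertical axis, from 0) in the 3 libraries of each group, with black bars for the mean and SD. Oscar to Fcer1g, Siglec15 to Tyrobp and Tec to Btk are lower in every RANKL + UD library than in every RANKL library, and Trem2 to Tyrobp overlaps.

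The genes whose profile over the 9 libraries was most like each member were found by the Euclidean distance between their log2 CPM (counts scaled to the TMM-adjusted library total, with a prior count of 2), centred on the mean. Distances are on the log2 scale and describe likeness of level across libraries only. Oscar had the largest distances: its nearest genes were Tnfsf8, at 1.62, and Sema7a, at 1.65. All 7 control counts of Oscar were in replicate 2, and this spread within control adds to both distances. Pearson's r over the 9 libraries was 0.991 for Oscar and Tnfsf8 and 0.990 for Oscar and Sema7a. Tnfsf8 averaged 0.217 FPKM in control, 29.9 in RANKL and 15.4 in RANKL + UD. Siglec15 had Gimap6 (0.586) and Erich2 (0.664), both at 0 FPKM in control and at 1.97 and 2.17 FPKM in RANKL. Trem2 was nearest to Cst3 (0.210), which encodes cystatin C, an inhibitor of cysteine proteases, and to Myo1g (0.236). Tyrobp was nearest to Litaf (0.205) and Eid1 (0.219). Fcer1g was nearest to Rpap1 (0.196) and 3300005D01Rik (0.205). Syk was nearest to Specc1 (0.123) and to Tpi1 (0.127), the gene of a glycolytic enzyme. Btk was nearest to Trap1 (0.126) and Mrpl45 (0.137), both of which encode mitochondrial proteins. Tec was nearest to Apobec1 (0.108) and Slc7a5 (0.135). Plcg2 and Lyn were each other's nearest gene, at a distance of 0.0858 among all tested genes, followed by Tnfaip2 (0.141) for Plcg2 and Slc20a1 (0.123) for Lyn. Pearson's r over the 9 libraries was 0.998 for Plcg2 and Lyn, and these libraries share the differences between the groups.

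The rest of the pathway was described with 5 lists, whose counts stand beside the shares of all tested genes given above. Among other ITAM-coupled receptors and signalling adaptors, 14 of 23 listed genes were tested. In RANKL against control 3 were higher and 8 lower, with a median log2 fold change of -0.88. In RANKL + UD against RANKL 1 was higher and 7 lower, with a median of -0.14. Clec7a, which encodes the β-glucan receptor Dectin-1, averaged 53.3 FPKM in control, 52.0 in RANKL and 21.5 in RANKL + UD, and fell by 1.36 with UD (edgeR adjusted p 7.43e-13). The Fc receptor gene Fcgr3, whose product uses FcRγ, averaged 36.0, 5.75 and 2.52 FPKM and was lower in both steps, by 2.56 and 1.27 on the log2 scale. Cd300c2 averaged 58.0, 16.4 and 8.79 FPKM and fell in both steps as well. The high-affinity Fc receptor gene Fcgr1 fell by 3.90 with RANKL and did not pass with UD (edgeR adjusted p 0.679). Plxna1, a semaphorin receptor that works with TREM2 and DAP12, rose by 2.19 with RANKL, from a mean of 1.33 to 5.68 FPKM. It fell by 0.28 with UD, and the libraries of RANKL and RANKL + UD overlapped in FPKM. This fall did not pass with library totals as the only scaling (edgeR adjusted p 0.0780). Nor did it pass without RANKL replicate 2 (0.0724) or without RANKL + UD replicate 1 (0.0945). With limma the adjusted p was 0.146 on log2(FPKM + 1) and 0.187 on log2(FPKM + 0.1). Clec5a, a DAP12-coupled lectin chosen after its values were seen, averaged 107, 112 and 71.3 FPKM and fell by 0.73 with UD (edgeR adjusted p 1.69e-10).

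Of the Src family and other kinases of the cascade, 7 of 13 were tested. With RANKL 2 were higher and 5 lower (median -0.74), and with UD 0 were higher and 3 lower (median -0.24). Of the 2, Lck, named after its values were seen, averaged 1.20 FPKM in control and 1.61 in RANKL. Its libraries overlapped (edgeR adjusted p 0.0456). The count of kinases higher with RANKL ranged from 1 to 2 over the alternatives. Src, the kinase that osteoclasts need for the ruffled border, averaged 0.543 FPKM in control, 34.0 in RANKL and 22.1 in RANKL + UD. It rose by 6.02 with RANKL (edgeR adjusted p 1.80e-20) and fell by 0.71 with UD (7.15e-08). The myeloid kinase gene Fgr was lower in both steps, at 28.9, 10.3 and 7.40 FPKM. With RANKL the Src family genes, Lyn included, moved in both directions.

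Of the scaffolds and exchange factors, 14 of 16 were tested, and 8 were higher and 4 lower with RANKL (median 0.36). With UD 0 were higher and 9 lower (median -0.22). Lat2 averaged 38.3, 64.9 and 48.6 FPKM in control, RANKL and RANKL + UD. Pik3ap1, an adaptor for phosphoinositide 3-kinase, averaged 47.5, 100.4 and 76.0 FPKM, and Gab2 averaged 7.32, 12.0 and 9.35 FPKM. These 3 rose with RANKL and fell with UD, by 0.50, 0.49 and 0.44 on the log2 scale. Malt1, a protease of the CARD9 complex, fell in both steps, from 13.4 to 9.88 to 6.97 FPKM.

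Of the list headed inhibitors, all 23 were tested. The heading is only a label: the list takes in Ptprc, Ptprj and Cd33, and no member was shown here to inhibit the pathway. With RANKL 7 were higher and 13 lower (median -0.29), and with UD 3 were higher and 14 lower (median -0.28). The inhibitory receptor gene Pirb averaged 6.43, 5.89 and 2.40 FPKM and fell by 1.38 with UD (edgeR adjusted p 1.55e-09). Lilrb4a averaged 275, 95.6 and 60.2 FPKM and fell in both steps. The ubiquitin ligase gene Cblb rose with RANKL from 1.19 to 2.42 FPKM and fell with UD to 1.53. Cd33 and Siglece fell with RANKL by 3.29 and 2.49 on the log2 scale, and Clec4a2 rose by 3.11. Of these, Cd33 and Clec4a2 fell with UD by 0.34 and 0.33, and Siglece did not pass (edgeR adjusted p 0.279). Ptpn6, the gene of the phosphatase SHP-1, chosen after its values were seen, was one of the 3 that were higher with UD, at 110 FPKM in RANKL and 138 in RANKL + UD (log2 fold change 0.24, edgeR adjusted p 0.00125).

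Of the effectors of calcium and NFATc1, 13 of 15 were tested. With RANKL 4 were higher and 9 lower (median -0.41), and with UD 2 were higher and 6 lower (median -0.066). Nfatc1, the transcription factor at the end of the pathway, averaged 10.5, 76.1 and 57.5 FPKM. It rose by 2.94 with RANKL and fell by 0.49 with UD (edgeR adjusted p 1.38e-07). The calcium channel gene Itpr3 rose by 0.29 and fell by 0.49, and Ppp3ca, which encodes a catalytic subunit of calcineurin, fell by 0.17 and 0.32. The phosphoinositide 3-kinase genes Pik3cg and Pik3cd fell with RANKL by 1.59 and 1.09. With UD, Pik3cd rose by 0.30 (edgeR adjusted p 0.00334), and Pik3cg did not pass (edgeR adjusted p 0.484).

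**Figure D4:**
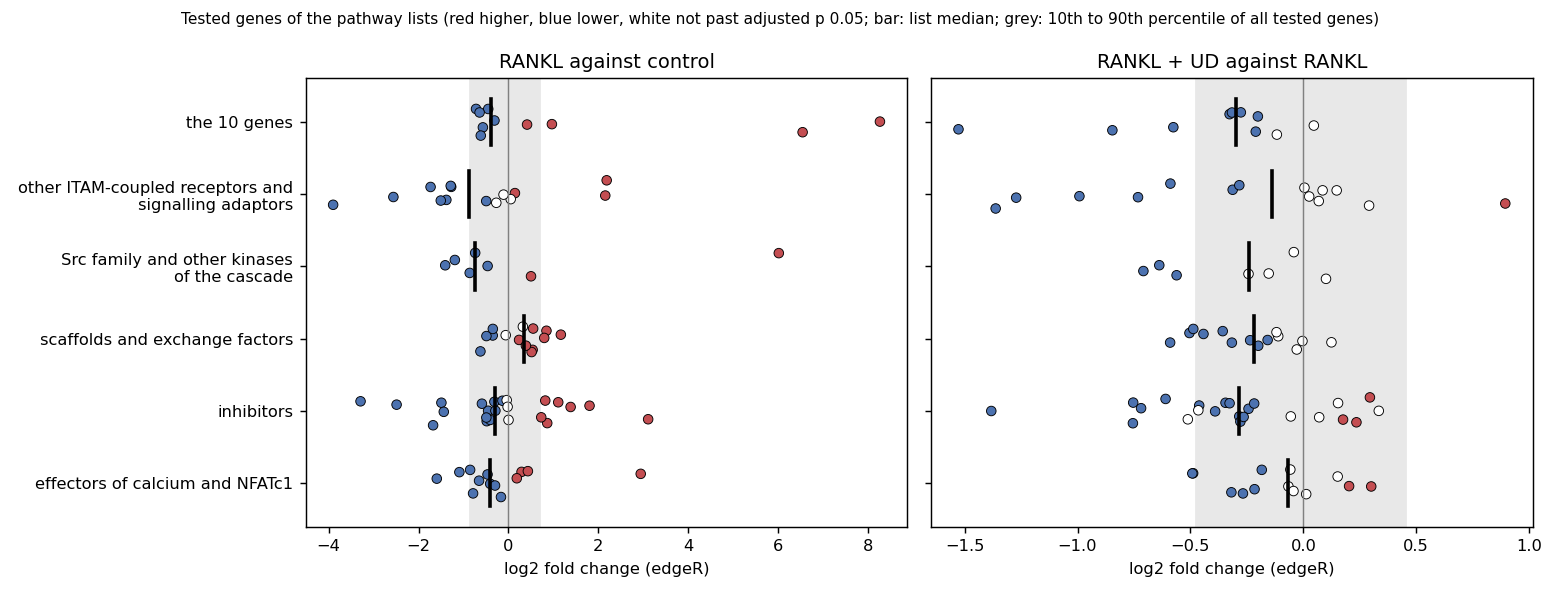
Log2 fold change (horizontal axis) of each tested gene, with a bar for the list median and a grey band for the 10th to 90th percentile of all tested genes, red for higher, blue for lower and white for not past an adjusted p of 0.05. Among the scaffolds most points are red in RANKL against control, and 9 are blue and 0 red in RANKL + UD against RANKL.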

How the data were processed

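The counts were deposited by the authors as whole reads per gene, without normalization. The deposited FPKM column of each library could be computed back, within 0.0051, from its counts, its total and each gene's exonic length. The submitters' processing notes name mm10, but the deposited coordinates equalled those of the GRCm38 annotation for 1435 of 52073 genes, so coordinates of genes are those of the deposited table and coordinates of promoters those of GRCm38.p6. The aligner and counting tool are not given in the sources used here, and the library protocol was strand-specific. The columns of the RANKL libraries carry the name of the model group, as the paper calls it.

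The counts of 11995 genes, those reaching 1 FPKM in 3 libraries or more, were tested with edgeR 4.0.16 in R 4.3.3. A single quasi-likelihood fit held the 9 libraries, scaled by TMM, and p-values were adjusted by Benjamini-Hochberg. TMM factors were 0.959 to 0.962 in RANKL and 1.01 to 1.03 elsewhere. Totals ranged from 15951800 to 19746862. Intervals on ratios of counts cover counting error only. Replicates differed beyond sampling noise (chi-square per degree of freedom 2.90 to 8.89), so none were merged. Deviations from the group mean correlated at -0.020 to 0.080 over 9 pairs of samples with the same replicate number. Between samples with different numbers they correlated at -0.075 to 0.042. In counts simulated for RANKL + UD against RANKL over 11995 genes, edgeR recovered 100% of changes of 2-fold and 94% of 1.41-fold. It made 9 false calls. Only 200 genes were changed there, all above a minimum mean count, with the same spread between replicates for every gene. The shares hold for that setting and not for genes of low count. Genes that overlap Plcg2, Btk, Tec or Lyn had at most 15 counts in any library.

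The 10 genes and the lists were chosen with earlier results of these data known. Beside the 10 genes, the text names the 2 genes nearest to each member. It names the genes of each list with the 3 largest changes in either comparison, if called and without overlap in FPKM. Single results for some of the genes of these lists are left out. The alternatives were no filter, a stricter filter, RLE size factors, library totals only, DESeq2 1.42.0, limma 3.58.1 on log2(FPKM + 1) and log2(FPKM + 0.1), only the 6 libraries compared, a replicate block and each library left out. Their use for the lists and named genes was decided after seeing the data.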

Additional observations from a re-analysis of the deposited data

How the results depend on the processing

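Of 30 results on single genes (10 genes in 3 comparisons), 26 kept their direction and their side of the threshold under all 18 alternatives, 4 changed their side and 0 reversed. All 4 were in RANKL + UD against RANKL. The count of genes lower there was 8 with edgeR and TMM, 6 with library totals only and 5 with limma on log2(FPKM + 1) and on log2(FPKM + 0.1), and the count of genes higher was 0 and became 1 (Btk) under these 3 settings. Library totals and FPKM carry no scaling between libraries beyond depth, and with library totals the median of all tested genes moved to 0.091. With limma on log2(FPKM + 1) the adjusted p was 0.0609 for Tyrobp, 0.111 for Plcg2, 0.0663 for Lyn and 0.0436 for Btk. The replicate block left the count of lower genes at 8 and changed no other call on the 10 genes. The labels do not say whether samples with the same number were handled together. With each library left out in turn, the count of lower genes ranged from 8 to 8.

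For the 23 genes named from the lists, 1230 of 1239 alternative values kept their side, 9 lost it (Plxna1 in RANKL + UD against RANKL and Itpr3 in RANKL + UD against control) and 0 reversed. The counts of lower genes in RANKL + UD against RANKL ranged over the alternatives from 6 to 9 for other ITAM-coupled receptors, 3 to 4 for kinases, 7 to 9 for scaffolds, 13 to 15 for inhibitors and 4 to 6 for effectors. The counts of higher genes ranged from 0 to 3, 0 to 1, 0 to 0, 2 to 5 and 1 to 2 in the same order. With 3 libraries a group, the exact tests of ratios could not pass 0.05, and control levels of Oscar and Siglec15 rest on 7 and 11 counts.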
